A study of Mus musculus with 10 samples.

Results

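The genes described here are the subunits and feedback regulators of the NF-κB transcription factor, followed in LSK cells (Lin−Sca1+cKit+ bone marrow cells, the compartment that holds hematopoietic stem cells and multipotent progenitors). Membership was set by gene name without a cutoff on any measured value, but earlier results of these data were known when the genes were chosen. The set comprised 10 genes of the 25078 listed in the count table: Nfkb1, Nfkb2, Rela, Relb and Rel encode the 5 subunits, Nfkbia, Nfkbiz and Tnfaip3 encode an inhibitor, a modulator and a brake, and Ikbkb and Tnfrsf1a encode a kinase and a receptor upstream of them. All 10 were detected in every library and had a mean level of at least 1 RPKM (reads scaled to library size and to exon length).

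RNA sequencing of sorted LSK cells compared CM mice with CM/miR-126Δ/Δ mice (n = 5 per genotype), and each mouse gave its own library. CM mice carried Cbfb56M/+, a conditional Cbfb-MYH11 allele that yields the fusion protein of inv(16) acute myeloid leukemia, together with Mx1-Cre, a recombinase under an interferon-inducible promoter. CM/miR-126Δ/Δ mice carried both of these and floxed alleles of miR-126 on both chromosomes. All 10 mice received poly(I:C), a double-stranded RNA that induces interferon and so turns on Mx1-Cre, at 6 to 8 weeks of age, and cells were taken 6 weeks later, before overt leukemia. Both sexes were used on a C57BL/6 background. The fusion allele, the recombinase and poly(I:C) were therefore shared by both groups, Mx1-Cre is not restricted to blood cells, and mice without the fusion were not analysed here. The comparison asks whether loss of miR-126 goes with a change in the NF-κB machinery of pre-leukemic stem and progenitor cells.

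NF-κB is a dimer of Rel-family proteins that is held in the cytoplasm by IκB proteins. Engagement of a tumor necrosis factor, interleukin-1 or toll-like receptor activates the IκB kinase, IκB is degraded, and the released dimer moves to the nucleus and drives inflammatory, survival and stress genes, among them the genes of its own inhibitors. In hematopoietic stem and progenitor cells the pathway is known for its part in survival, in emergency responses to infection and in leukemia stem cells, and much of its control lies in protein degradation and localization, which RNA levels do not show.

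The deletion was checked first. Mir126a, the hairpin gene of the deleted microRNA on chromosome 2, was counted 4, 5, 0, 2 and 3 times in CM mice 1 to 5 and 0 times in each CM/miR-126Δ/Δ mouse (p = 0.0476, exact permutation, two-sided). The counts of the hairpin were too few to check single mice, and CM mouse 3 had none. Egfl7, the gene whose intron holds the microRNA, averaged 114 ± 20.0 CPM (counts scaled to library size by edgeR's TMM factors) with miR-126 and 107 ± 12.2 CPM without it (SD, n = 5 each; p = 0.563, exact permutation). The CM libraries were deeper, with 23649233 to 33202086 counts against 24141663 to 26615091 (p = 0.0476, exact permutation), so that 3 counts correspond to 0.0908 to 0.131 CPM, and RNA concentrations were 20.6 to 40.9 and 16.1 to 29.5 ng/µl. The defining markers of the labelled cell type were present: 13 of 13 LSK markers exceeded 1 RPKM, with Cd34 highest at 302 to 391 RPKM, and their summed level was 3721 to 4333 CPM in CM and 3610 to 4334 CPM in CM/miR-126Δ/Δ mice. Of these 13, Hlf, Mecom and Meis1, which mark stem cells, had an unadjusted p under 0.05 at log2 fold changes of 0.31, 0.24 and 0.19 (adjusted p = 0.661, 0.748 and 0.746 by edgeR's quasi-likelihood test), and of the markers of other cells Itgam did, at -0.35 (adjusted p = 0.746). Summed markers of other cells overlapped between the genotypes: granulocytes and monocytes 234 to 558 and 267 to 718 CPM (Lyz2 highest), B cells 28.4 to 40.4 and 24.5 to 39.4 CPM (Cd79b), T and NK cells 41.8 to 73.9 and 47.8 to 69.9 CPM (Nkg7), and erythroid cells 12.9 to 75.8 and 24.1 to 66.0 CPM (Alas2, with Hba-a1, Hba-a2 and Hbb-bt at 0). The same held for megakaryocytes and platelets at 140.1 to 210.0 and 108 to 179 CPM (Itga2b), mast cells and basophils at 132 to 290 and 134 to 271 CPM (Cpa3), and endothelium and stroma at 173 to 220 and 180 to 206 CPM (Pecam1). In bulk samples such as these, fewer cells of a type and less RNA per cell cannot be told apart.

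The deleted microRNA is shown because the comparison rests on it. Its mature 3′ arm, from RefSeq on GRCm38.p6 (chr2:26591402-26591423, plus strand), has its seed, bases 2 to 8, in capitals:
mmu-miR-126a-3p: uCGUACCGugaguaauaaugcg
A match to bases 2 to 7 of this microRNA in a transcript reads GGTACG, and a match to the whole seed reads CGGTACG. Neither was found in the longest annotated 3′ untranslated region of any of the 10 members (299 to 2477 bases, GENCODE M1 transcripts). Of the 19915 genes with such a region, 2.95% held the shorter match and 0.211% the longer. Among those with a mean of at least 1 RPKM the shares were 3.58% and 0.259%. The 0 of 10 members is near these shares. The search covers these annotated stretches only, which need not match the transcripts that were counted. For Rel the stretch of 751 bases is short against the 7462 exon bases of the deposited count table. For Relb the stretch of 2477 bases is longer than its 2200 exon bases there.

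NF-κB sites in promoters are the means by which the pathway controls its own feedback genes, so promoter sequences of members are shown. RefSeq promoters (300 bases, of which the last 50 follow the start, GRCm38.p6, the build of the deposited coordinates) were matched for Nfkb2, Rela, Rel, Nfkbia, Tnfaip3 and Tnfrsf1a. They were searched on both strands for the 10-base κB consensus, letting matches overlap, and capitals mark each match:
Nfkbia (chr12:55492598-55492897, minus strand): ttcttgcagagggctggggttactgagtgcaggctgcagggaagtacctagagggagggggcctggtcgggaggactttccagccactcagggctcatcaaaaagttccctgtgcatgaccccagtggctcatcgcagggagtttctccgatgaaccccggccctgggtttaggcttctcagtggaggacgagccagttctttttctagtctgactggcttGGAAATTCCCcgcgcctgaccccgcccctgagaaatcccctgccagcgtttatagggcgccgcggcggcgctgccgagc
Tnfaip3 (chr10:19015361-19015660, minus strand): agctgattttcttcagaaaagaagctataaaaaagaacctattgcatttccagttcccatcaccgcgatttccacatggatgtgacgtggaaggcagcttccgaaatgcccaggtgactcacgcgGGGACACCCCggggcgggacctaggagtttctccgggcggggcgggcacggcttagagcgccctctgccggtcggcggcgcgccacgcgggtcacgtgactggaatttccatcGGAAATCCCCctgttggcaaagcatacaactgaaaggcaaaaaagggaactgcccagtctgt
Nfkb2 (chr19:46304487-46304786, plus strand): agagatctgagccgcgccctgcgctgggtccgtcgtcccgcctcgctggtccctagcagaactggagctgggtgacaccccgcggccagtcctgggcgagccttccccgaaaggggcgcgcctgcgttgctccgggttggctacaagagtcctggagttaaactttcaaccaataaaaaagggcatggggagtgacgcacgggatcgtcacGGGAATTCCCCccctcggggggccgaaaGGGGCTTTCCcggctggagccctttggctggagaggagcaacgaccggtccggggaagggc
Rel (chr11:23770920-23771219, minus strand): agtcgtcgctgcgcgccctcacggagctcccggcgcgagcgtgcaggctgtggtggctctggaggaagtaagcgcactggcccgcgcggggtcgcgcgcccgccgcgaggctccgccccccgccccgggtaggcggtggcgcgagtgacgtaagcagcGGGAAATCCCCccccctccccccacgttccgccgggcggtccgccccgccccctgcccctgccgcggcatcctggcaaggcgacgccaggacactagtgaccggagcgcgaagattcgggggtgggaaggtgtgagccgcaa
Rela (chr19:5637291-5637590, plus strand): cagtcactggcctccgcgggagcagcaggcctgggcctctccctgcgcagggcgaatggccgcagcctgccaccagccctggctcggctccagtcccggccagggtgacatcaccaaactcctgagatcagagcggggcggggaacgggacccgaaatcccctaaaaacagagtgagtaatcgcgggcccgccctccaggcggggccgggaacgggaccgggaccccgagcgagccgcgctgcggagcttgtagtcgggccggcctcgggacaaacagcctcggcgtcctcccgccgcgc
The Nfkbia window held 1 match, beginning 29 bases before the start, and the Tnfaip3 window held 2, at 125 and 12 bases before it. In Nfkb2 there were 3 matches in 2 stretches, since those at 39 and 38 bases before the start overlap and the other lies 11 bases before it, and in Rel 2 overlapping matches formed 1 stretch beginning 92 bases before the start. The windows of Rela and Tnfrsf1a held none. These are the windows of the first listed start of each gene: a further start of Tnfaip3 held 0 matches, and those of Nfkb2 held 2 and 1, not shown. These further Nfkb2 windows overlap each other, and the single match of the last one is also among the 2 of the other. Of all 32851 promoter windows of this length, 2779 (8.46%) held at least 1 match. A match describes the letters and not a bound site.

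For the set as a whole, no member passed a test for a difference between the genotypes. In edgeR's quasi-likelihood test, adjusted by Benjamini-Hochberg over all 18747 genes fitted, 0 of 10 members reached an adjusted p under 0.05, where 2 of all genes did (0.0107%). At the cutoffs of the study (unadjusted p of at most 0.01, at least 1.5-fold, mean of at least 1 RPKM in 1 genotype), 0 of 10 members passed against 0.288% of all genes. At an unadjusted p under 0.05 there were 0 of 10 against 6.61% of all genes, and 0 of 10 against 8.89% when the replicate number was added as a block. With DESeq2 there were 0 of 10 members at an adjusted p under 0.05 against 0.33% of the genes it adjusted, and 0 of 10 at an unadjusted p under 0.05 against 6.07%, so that 0 of 10 is near the background in each of these counts. No member had all mice of one genotype above all mice of the other, which was the case for 1.38% of the 11682 genes with a mean of at least 1 RPKM. The log2 fold change (CM/miR-126Δ/Δ against CM) was above 0 for 3 members and below 0 for 7, with a median of -0.04 beside -0.02 over those 11682 genes. What varied was the level between mice: the 3 feedback genes differed 2.29- to 4.85-fold between the lowest and the highest of the 10 mice, the 5 subunits 1.17- to 2.35-fold, with Nfkb2 at the upper end, and the kinase and receptor 1.19- to 1.25-fold.

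**Figure D1:**
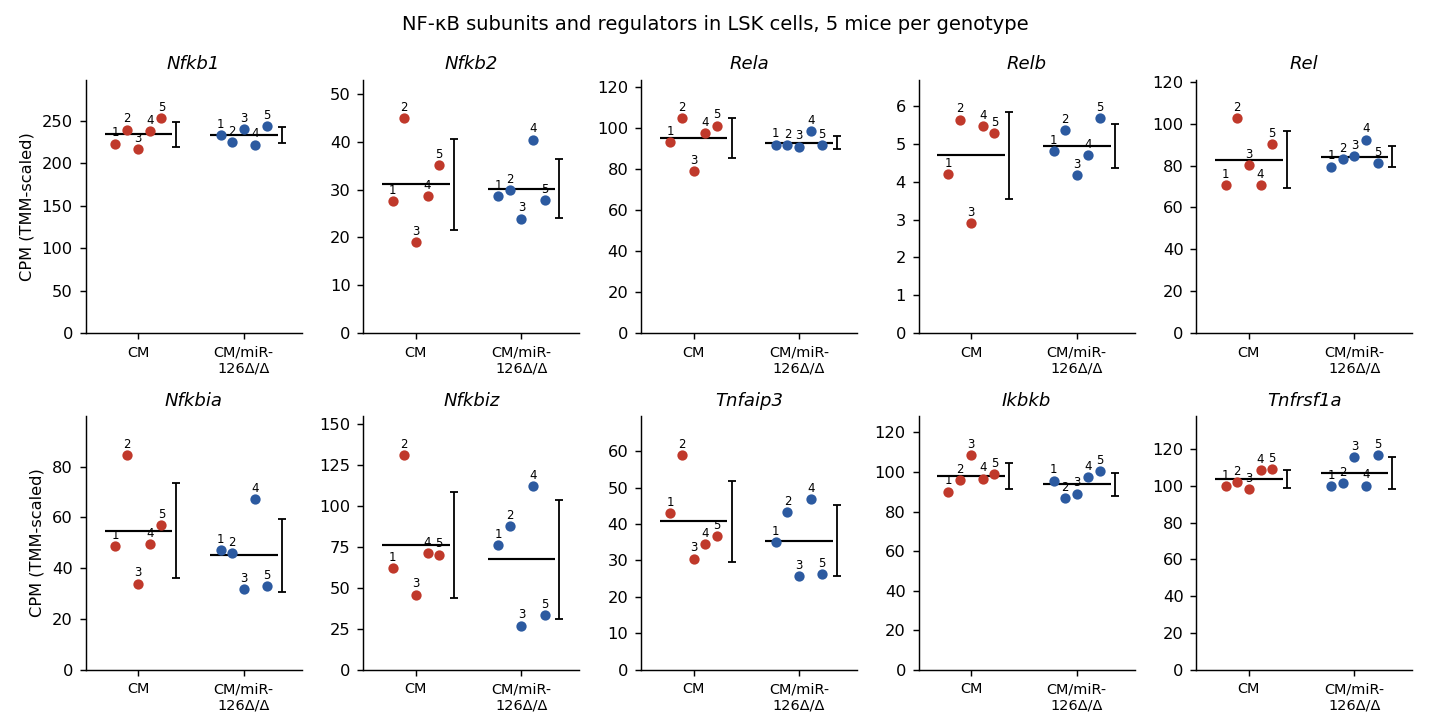
Level of each member in CPM (vertical axes start at 0) in LSK cells of 5 CM mice (red) and 5 CM/miR-126Δ/Δ mice (blue); numbers are the mouse numbers, horizontal lines the means and bars the SD. The genotypes overlap for all 10 genes, and Nfkbiz runs from 26.9 to 131 CPM while Nfkb1 stays between 216 and 253 CPM.

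Among the subunits, Nfkb1 (chr3:135584655-135691547, minus strand), which encodes the p105 precursor of p50, was at 223, 239.7, 216, 238 and 253 CPM in CM mice 1 to 5 and at 233, 224, 240.4, 222 and 243 CPM in CM/miR-126Δ/Δ mice 1 to 5. The 10 mice lay close together, with CM mouse 3 lowest and CM mouse 5 highest. The log2 fold change was -0.01 (SE 0.0597, adjusted p = 0.977), with a 95% interval of 0.910- to 1.09-fold by edgeR's quasi-likelihood test. Rela (chr19:5637541-5648134, plus strand) encodes p65, the subunit that carries the transactivation domain of the classical p50/p65 dimer. Rela was at 93.2, 105, 79.04, 97.5 and 101 CPM in CM and at 91.9, 91.6, 90.9, 98.4 and 91.6 CPM in CM/miR-126Δ/Δ mice. CM mice 2 and 3 were the highest and the lowest of all 10, and the CM/miR-126Δ/Δ values lay between them. The Rela log2 fold change was -0.03 (SE 0.0688, adjusted p = 0.922), with a 95% interval of 0.881- to 1.08-fold.

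Rel (chr11:23736850-23770969, minus strand) encodes c-Rel, the transactivating subunit best known from lymphocytes. Its level was 70.7, 103, 80.3, 70.7 and 90.1 CPM in CM mice 1 to 5 and 79.5, 83.3, 84.6, 92.4 and 81.2 CPM in CM/miR-126Δ/Δ mice 1 to 5. CM mouse 2 was highest and CM mice 1 and 4 lowest, with all CM/miR-126Δ/Δ mice inside the CM range. The Rel log2 fold change was 0.02 (SE 0.0935, adjusted p = 0.974), with a 95% interval of 0.884- to 1.17-fold.

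The subunits of the non-canonical arm are Nfkb2, which encodes the p100 precursor of p52 and is itself an NF-κB target gene, and its partner Relb. Nfkb2 (chr19:46304737-46312090, plus strand) was at 27.6, 44.9, 19.1, 28.7 and 35.2 CPM in CM and at 28.6, 30.00, 23.9, 40.5 and 27.9 CPM in CM/miR-126Δ/Δ mice. It was highest in CM mouse 2, next highest in CM/miR-126Δ/Δ mouse 4 and lowest in CM mouse 3, so that the genotypes overlapped over most of the range. The Nfkb2 log2 fold change was -0.04 (SE 0.189, adjusted p = 0.975), with a 95% interval of 0.733- to 1.28-fold. Nfkb2 overlaps 4833438C02Rik on the opposite strand over 893 bases, a gene at 329 to 623 counts per library, and whether the counting used strand is not given in the sources used here. Relb (chr7:19606222-19629438, minus strand) was the lowest member, at 4.21, 5.65, 2.91, 5.48 and 5.28 CPM in CM and 4.82, 5.37, 4.18, 4.71 and 5.68 CPM in CM/miR-126Δ/Δ mice. These levels rest on 71 to 171 counts per library, and CM mouse 3 alone lay under 4 CPM. The Relb log2 fold change was 0.07 (SE 0.180, adjusted p = 0.939), with a 95% interval of 0.805- to 1.37-fold.

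For these 5 subunits no direction held throughout: the sign of the log2 fold change turned when single mice were left out, over ranges of -0.02 to 0.04 for Nfkb1, -0.16 to 0.13 for Nfkb2, -0.08 to 0.0024 for Rela, -0.04 to 0.15 for Relb and -0.02 to 0.11 for Rel. Leaving out CM mouse 2 or 5 turned Nfkb1, Nfkb2 and Rela, CM/miR-126Δ/Δ mouse 3 also turned Nfkb2, CM mouse 3 turned Relb and CM mouse 1 or 4 turned Rel. Nfkb1 turned as well without CM mouse 4 or CM/miR-126Δ/Δ mouse 1, 2 or 4, and under another scaling (0.0019 with RLE size factors). The intervals allow a difference of at most 1.09-fold upward for Nfkb1 and 1.08-fold for Rela, against 1.37-fold for Relb.

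Nfkbia (chr12:55489409-55492647, minus strand) encodes IκBα, the inhibitor that retains NF-κB in the cytoplasm and whose transcription NF-κB drives within its own feedback loop. It was at 48.7, 84.6, 33.9, 49.4 and 57.02 CPM in CM mice 1 to 5 and at 47.1, 45.8, 31.8, 67.3 and 33.02 CPM in CM/miR-126Δ/Δ mice 1 to 5. CM mouse 2 and CM/miR-126Δ/Δ mouse 4 were the highest of their genotypes, and CM mouse 3 lay close to CM/miR-126Δ/Δ mice 3 and 5, the lowest 3 of the 10. The Nfkbia means were 54.7 ± 18.7 CPM with and 45.02 ± 14.3 CPM without miR-126 (SD, n = 5 each). The Nfkbia log2 fold change was -0.28 (SE 0.225, adjusted p = 0.765), with a 95% interval of 0.589- to 1.15-fold (exact permutation test over all splits of the 10 mice, p = 0.389). This was the largest of the 10 differences in size. Of the 5 pairs of same-numbered mice 4 had the lower value without miR-126, with log2 differences of -0.05, -0.88, -0.09 and -0.79, and pair 4 had 0.45 (exact sign-change test, p = 0.312, smallest possible 0.0625). Without CM/miR-126Δ/Δ mouse 4 the log2 fold change became -0.46 with an unadjusted p of 0.0483 and an adjusted p of 0.518, and without CM mouse 2 it became -0.07.

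Nfkbiz (chr16:55811377-55838641, minus strand) encodes IκBζ, a nuclear IκB protein that is induced by toll-like and interleukin-1 receptor signals and is needed for a later group of target genes. It was at 62.04, 131, 45.8, 71.2 and 70.2 CPM in CM and at 76.2, 87.6, 26.9, 112 and 33.3 CPM in CM/miR-126Δ/Δ mice. CM/miR-126Δ/Δ mice 3 and 5 were the lowest of all 10, whereas CM/miR-126Δ/Δ mice 1, 2 and 4 exceeded all CM mice but mouse 2. The Nfkbiz means were 76.01 ± 32.3 CPM with and 67.2 ± 36.3 CPM without miR-126 (SD, n = 5 each). For Nfkbiz the log2 fold change was -0.18 (SE 0.348, adjusted p = 0.922), with a 95% interval of 0.527- to 1.48-fold (exact permutation test, p = 0.556). The value reversed to 0.11 without CM mouse 2 and to 0.02 without CM/miR-126Δ/Δ mouse 3, and it was -0.28 (unadjusted p = 0.188, adjusted p = 0.764) with the replicate block. Nfkbiz had the widest spread of the set, with an SD of log2 CPM between mice of 0.75 after removal of the genotype means, higher than in 96.7% of the 11682 genes.

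Tnfaip3 (chr10:19000910-19015410, minus strand) encodes A20, a ubiquitin-editing enzyme that shuts off signaling from the tumor necrosis factor receptor and is itself induced by NF-κB. It was at 43.02, 58.9, 30.5, 34.5 and 36.7 CPM in CM and at 35.01, 43.4, 25.8, 46.9 and 26.2 CPM in CM/miR-126Δ/Δ mice. Again CM mouse 2 and CM/miR-126Δ/Δ mouse 4 were the highest of their genotypes, and CM/miR-126Δ/Δ mice 3 and 5 were the lowest of the 10. The Tnfaip3 means were 40.7 ± 11.1 CPM with and 35.5 ± 9.66 CPM without miR-126 (SD, n = 5 each). For Tnfaip3 the log2 fold change was -0.20 (SE 0.191, adjusted p = 0.781), with a 95% interval of 0.655- to 1.16-fold (exact permutation test, p = 0.437). The lower value lay with the CM/miR-126Δ/Δ mouse in 4 of 5 same-numbered pairs (exact sign-change test, p = 0.312), and the log2 fold change ranged from -0.31 without CM/miR-126Δ/Δ mouse 4 to -0.03 without CM mouse 2.

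**Figure D2:**
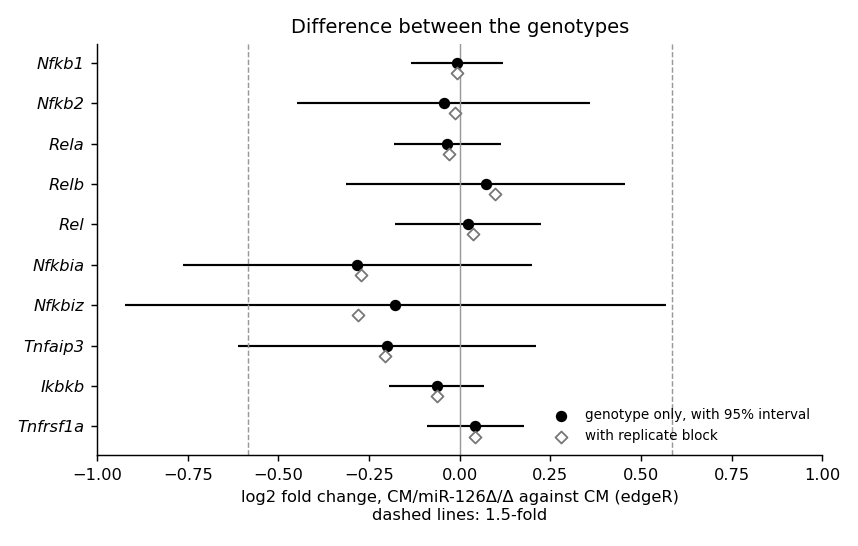
Log2 fold change of each member, CM/miR-126Δ/Δ against CM (5 mice each), from edgeR with genotype alone (filled circles, bars are 95% intervals) and from the fit blocked on replicate number (open diamonds). All 10 intervals include 0; they are narrow for Nfkb1, Rela, Ikbkb and Tnfrsf1a and wide for Nfkbia, Nfkbiz and Tnfaip3, where they reach past the dashed line at 1.5-fold lower.

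Ikbkb (chr8:22659205-22706583, minus strand) encodes IKKβ, the kinase that phosphorylates IκBα. It was at 90.04, 96.02, 109, 96.7 and 98.8 CPM in CM and at 95.6, 86.6, 89.03, 97.3 and 100.4 CPM in CM/miR-126Δ/Δ mice, with CM mouse 3 highest and CM/miR-126Δ/Δ mouse 2 lowest. The Ikbkb log2 fold change was -0.06 (SE 0.0610, adjusted p = 0.787), with a 95% interval of 0.874- to 1.05-fold. Tnfrsf1a (chr6:125349723-125362483, plus strand) encodes TNFR1, the main receptor through which tumor necrosis factor reaches the kinase. Tnfrsf1a was at 100.03, 102, 98.2, 109 and 109 CPM in CM and at 100.1, 101, 116, 100.2 and 117 CPM in CM/miR-126Δ/Δ mice. CM/miR-126Δ/Δ mice 3 and 5 lay above the other 8, which ran from 98.2 to 109 CPM. The Tnfrsf1a log2 fold change was 0.04 (SE 0.0619, adjusted p = 0.881), with a 95% interval of 0.940- to 1.13-fold. For both genes the genotypes overlapped, and the intervals of both lie between 0.874- and 1.13-fold.

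Levels were put in order per exon length, as mean RPKM ± SD over the 10 mice. Nfkb1 was the most abundant member at 56.7 ± 2.80 RPKM, followed by Tnfrsf1a at 48.8 ± 3.19, Rela at 35.3 ± 2.65, Nfkbia at 31.6 ± 10.5 and Ikbkb at 21.2 ± 1.39 RPKM. Nfkbiz at 18.5 ± 8.44, Rel at 11.2 ± 1.30, Nfkb2 at 9.31 ± 2.32, Tnfaip3 at 8.29 ± 2.22 and Relb at 2.19 ± 0.396 RPKM made up the lower part. Neighbors in this order were compared within mice by exact sign-change tests of the log2 RPKM difference (n = 10 mice, adjusted over 9 pairs). Nfkb1 exceeded Tnfrsf1a, Tnfrsf1a exceeded Rela, Rel exceeded Nfkb2 and Tnfaip3 exceeded Relb in 10 of 10 mice (adjusted p = 0.00439 each). Nfkbia lay above Ikbkb (adjusted p = 0.0246) and Nfkbiz above Rel (adjusted p = 0.0469) in 8 of 10 mice each. Rela and Nfkbia (adjusted p = 0.0989), Ikbkb and Nfkbiz (adjusted p = 0.182), and Nfkb2 and Tnfaip3 (adjusted p = 0.0753) were not separated beyond their spread by these exact tests. The classical subunits Nfkb1 and Rela stood above the non-canonical subunits Nfkb2 and Relb in this order. When single mice were left out, 5 or 6 of the 9 neighbor pairs stayed at an adjusted p under 0.05, and it was 5 without CM mouse 1, 4 or 5 or CM/miR-126Δ/Δ mouse 1, 2 or 4.

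The members differed in how much they varied between mice of the same genotype, also within the subunits. The SD of log2 CPM with genotype means removed was 0.08 for Nfkb1, 0.09 for Ikbkb, 0.10 for Tnfrsf1a and 0.12 for Rela, below the median of 0.14 over the 11682 genes. It was 0.17 for Rel, 0.31 for Relb, 0.38 for Nfkb2 and Tnfaip3, and 0.46 for Nfkbia. Nfkbia and, at 0.75, Nfkbiz thus stood above the 90th percentile of the 11682 genes, which is 0.38, and Tnfaip3 and Nfkb2 stood at or near it. CM mouse 2 gave the highest value of 6 members (Nfkb2, Rela, Rel, Nfkbia, Nfkbiz and Tnfaip3). CM mouse 3 gave the lowest value of 5 (Nfkb1, Nfkb2, Rela, Relb and Tnfrsf1a), and CM/miR-126Δ/Δ mouse 3 the lowest value of all 3 feedback genes.

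The feedback genes moved together across mice. After removal of the genotype means, 9 of the 45 pairs of members had an adjusted p under 0.05 for Pearson's r (permutation within genotypes, 100000 resamples, n = 10 mice), and all 9 were positive. No share over pairs of all genes stands beside this count, so it does not set the members apart from other genes. Genes outside the set also ran with the mean of the feedback genes, as Med29 at r = 0.978 and Ccnl1 at 0.970 (genotype means kept in). Nfkbia and Nfkb2 gave r = 0.945 (adjusted permutation p = 0.00375; Spearman's rho = 0.976, adjusted p = 0.0104), and r was 0.900 without the 2 mice farthest from the median. Among the feedback genes themselves r was 0.927 for Nfkbiz and Tnfaip3 (adjusted permutation p = 0.0109; rho = 0.903, adjusted p = 0.0303) and 0.921 for Nfkbia and Nfkbiz (adjusted permutation p = 0.00562; rho = 0.867, adjusted p = 0.0142). For Nfkbia and Tnfaip3 it was 0.909 (adjusted permutation p = 0.0119), with rho = 0.818 at an adjusted p of 0.0548. Without the 2 farthest mice these 3 values of r were 0.905, 0.865 and 0.782.

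Besides Nfkbia, Nfkb2 correlated with Tnfaip3 at r = 0.795 (adjusted permutation p = 0.0412; rho = 0.782, adjusted p = 0.0615) and with Nfkbiz at 0.783 (adjusted permutation p = 0.0109; rho = 0.855, adjusted p = 0.0126). Rela, whose own promoter window held no match, correlated with Nfkb2 at r = 0.920 (adjusted permutation p = 0.00375; rho = 0.903, adjusted p = 0.0198) and with Nfkbia at 0.805 (adjusted permutation p = 0.00375; rho = 0.903, adjusted p = 0.0126). Its range was nonetheless small, 1.32-fold between the lowest and the highest mouse against 2.35-fold for Nfkb2. Nfkb1 and Tnfrsf1a formed the last of the 9 pairs, with r = 0.786 (adjusted permutation p = 0.0494; rho = 0.806, adjusted p = 0.0303). The pair of Rela and Relb had r = 0.844 at an adjusted permutation p of 0.123 and fell to 0.377 without the 2 farthest mice. With the genotype means kept in, 6 pairs passed, all among these 9, and the pairs of Nfkb2 with Nfkbiz and with Tnfaip3 (adjusted permutation p = 0.0586 each) and of Nfkb1 with Tnfrsf1a (adjusted permutation p = 0.0605) did not. The permutation took no account of the replicate numbers, and 5 pairs of mice were too few to correlate their differences.

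**Figure D3:**
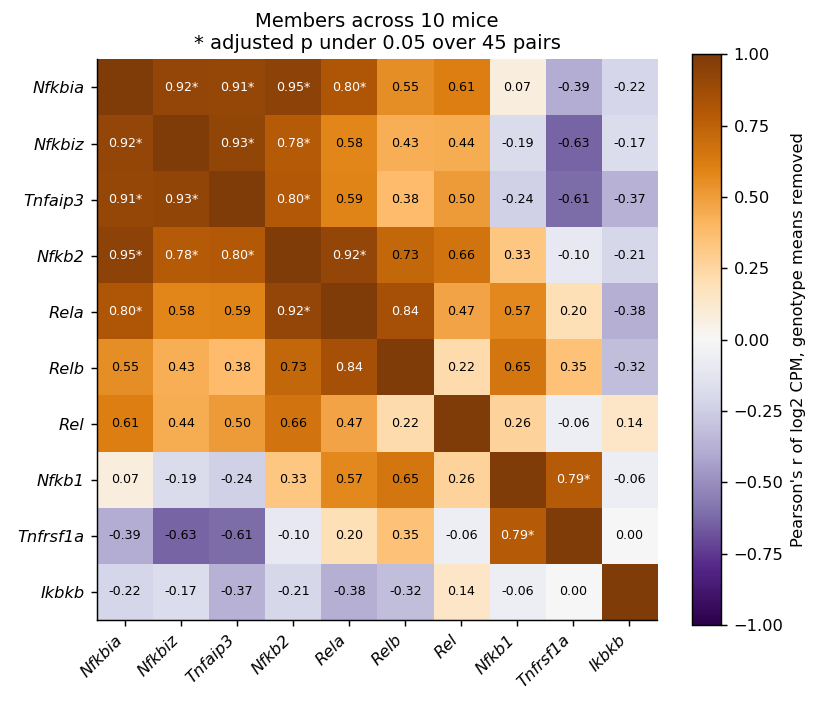
Pearson's r between members across 10 mice (log2 CPM, genotype means removed), on a scale from -1 (purple) to 1 (brown), with asterisks where the permutation p adjusted over 45 pairs was under 0.05. Nfkbia, Nfkbiz, Tnfaip3 and Nfkb2 form a block with r of 0.78 to 0.95, Rela joins it through Nfkbia and Nfkb2, and Ikbkb has no asterisk; the asterisks of Nfkb2 with Nfkbiz and Tnfaip3 and of Nfkb1 with Tnfrsf1a are lost with the genotype means kept in.

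The differences between same-numbered mice showed the same joint movement. They come from the same values as the correlations above, and so add no separate evidence for it. Over pairs 1 to 5 the log2 difference (CM/miR-126Δ/Δ minus CM) was -0.05, -0.88, -0.09, 0.45 and -0.79 for Nfkbia, 0.30, -0.58, -0.76, 0.65 and -1.07 for Nfkbiz, and -0.30, -0.44, -0.24, 0.44 and -0.49 for Tnfaip3. All 3 genes had the same sign in 4 of 5 pairs: lower in pairs 2, 3 and 5 and higher in pair 4. Pair 1 was mixed.

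Immediate early genes, the transcription factors and phosphatases that cells switch on within minutes of a stimulus, were high and low in the same mice at the ends of the range. The mean log2 CPM of a list of 22 such genes (Fos, Jun, Egr1, Zfp36 and others) was 6.41, 7.60, 5.12, 6.45 and 6.65 in CM mice 1 to 5 and 6.28, 6.17, 3.58, 6.65 and 3.84 in CM/miR-126Δ/Δ mice 1 to 5. It was highest in CM mouse 2 and lowest in CM/miR-126Δ/Δ mice 3 and 5, as Nfkbiz and Tnfaip3 were, and its geometric mean spanned 16.3-fold. All 22 had a log2 fold change below 0 (median -0.77), where 6719 of the 11682 genes did, and 0 had an adjusted p under 0.05. By edgeR's quasi-likelihood test 4 (18.2%) had an unadjusted p under 0.05, against 6.61% of all genes. With the replicate block 18 did, against 8.89% of all genes, again with 0 after adjustment. The 22 genes were read from the same 10 mice, and genes that move together count a shared deviation more than once. These counts are therefore not counts of independent genes. Rhob, a small GTPase, had a log2 fold change of -0.64 (adjusted p = 0.661), and the Krüppel-like factors Klf4, Klf6 and Klf2 had -1.16, -0.74 and -1.33 (adjusted p = 0.690, 0.746 and 0.750). The count of 4 became 2 without CM mouse 2 or CM/miR-126Δ/Δ mouse 3 or 5, 10 without CM mouse 3 and 12 without CM/miR-126Δ/Δ mouse 4.

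Measures of the libraries stood beside these ends too. CM/miR-126Δ/Δ mice 3 and 5 had the lowest RNA concentrations of the 10 mice, 16.1 and 18.2 ng/µl, and the fewest genes with a count, 15983 and 16058, where the other 8 had 16191 to 16698. They also had the highest shares of counts on Rn45s, the ribosomal RNA precursor, at 22.6% and 18.6%, although CM mouse 2, at the other end, was next at 18.5% and the 10 mice began at 14.8%. CM/miR-126Δ/Δ mouse 4 had the highest RNA concentration of its genotype, 29.5 ng/µl, and CM mouse 2 had 27.9 ng/µl within a CM range of 20.6 to 40.9. CM mouse 3, also low in the feedback genes, had 26.5 ng/µl, the next fewest genes with a count (16191) and the lowest Rn45s share, 14.8%. The highest RNA concentration, 40.9 ng/µl, was that of CM mouse 5, which lay at neither end of the feedback genes. The part of the immediate early genes, RNA amount and ribosomal RNA in the levels of the feedback genes was not tested.

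**Figure D4:**
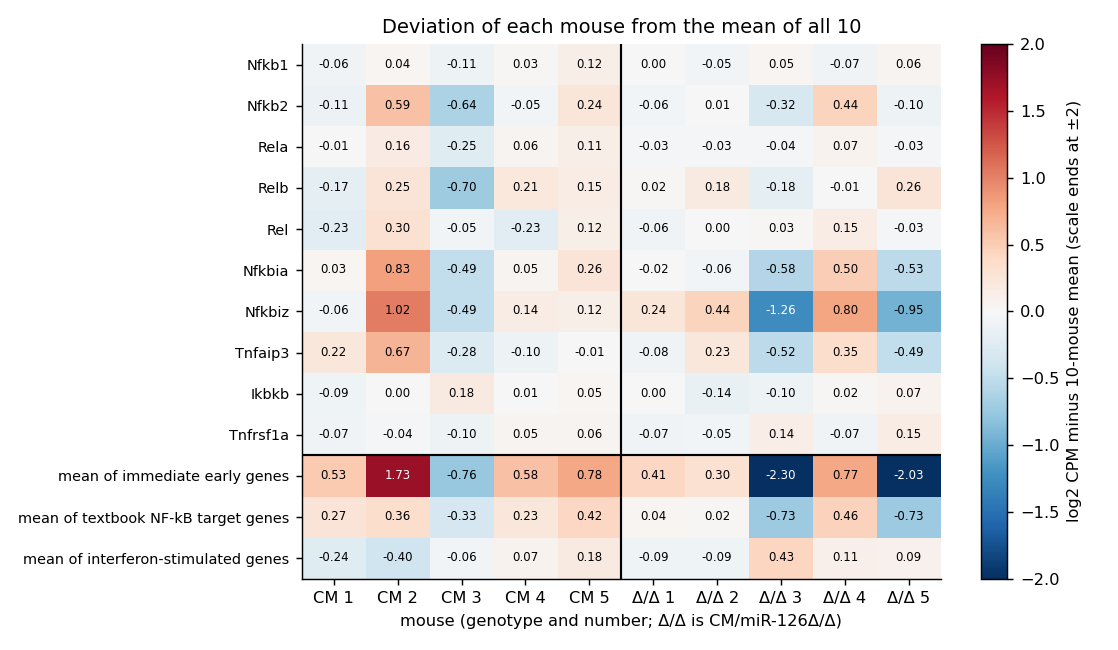
Deviation of log2 CPM in each of the 10 mice (columns, CM left of the line, CM/miR-126Δ/Δ right of it) from the mean of all 10, for the 10 members and for the mean of 3 gene lists; red is above and blue below the mean. Nfkbia, Nfkbiz and Tnfaip3 are high in CM mouse 2 and CM/miR-126Δ/Δ mouse 4 and low in CM mouse 3 and CM/miR-126Δ/Δ mice 3 and 5, as are the immediate early and the textbook target genes, while Nfkb1, Ikbkb and Tnfrsf1a stay within 0.18 of the mean.

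Interferon-stimulated genes, listed because poly(I:C) was given to every mouse, did not follow this order. Their mean log2 CPM over 18 genes was 4.24, 4.08, 4.42, 4.54 and 4.65 in CM mice 1 to 5 and 4.39, 4.39, 4.90, 4.59 and 4.56 in CM/miR-126Δ/Δ mice 1 to 5, lowest in CM mouse 2 and highest in CM/miR-126Δ/Δ mouse 3. The log2 fold change was above 0 for 16 and below 0 for 2 (median 0.18), beside 4963 above and 6719 below 0 of the 11682 genes. Of the 18, 0 had an adjusted p under 0.05, and 1 had an unadjusted p under 0.05 by edgeR's quasi-likelihood test, or 3 with the replicate block. That one was Ddx58, the sensor RIG-I, with a log2 fold change of 0.20 (unadjusted p = 0.0282, adjusted p = 0.746). When single mice were left out the count at an unadjusted p under 0.05 ran from 0 to 6, with 6 without CM mouse 5, 4 without CM/miR-126Δ/Δ mouse 1, and 0 without CM mouse 1 or 2 or CM/miR-126Δ/Δ mouse 5.

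Beyond the members, 122 genes of 9 lists around the pathway were read from the same test, and 0 reached an adjusted p under 0.05. An unadjusted p under 0.05 was found for 9 (7.38%), near the 6.61% of all genes, but unevenly. Immediate early genes gave 4 of these (of 22, 18.2%) and textbook targets 3 (of 29, 10.3%). The other IκB proteins and the interferon-stimulated genes gave 1 each, and the remaining lists 0. With the replicate block the immediate early genes gave 18, the textbook targets 6 and the interferon-stimulated genes 3, where 8.89% of all genes passed. Genes of a list that move together across the mice are not independent counts. The other IκB proteins and the tumor necrosis factor receptor complex gave 1 each. The other IκB proteins were 4 genes, 2 with a log2 fold change above 0 and 2 below. Nfkbib, which encodes IκBβ, was at 14.3, 15.9, 14.8, 14.5 and 15.3 CPM in CM and at 12.4, 12.6, 11.7, 14.6 and 13.3 CPM in CM/miR-126Δ/Δ mice. CM/miR-126Δ/Δ mouse 4 reached into the CM range and the other 4 lay below it. Its log2 fold change was -0.21 (SE 0.0888, unadjusted p = 0.0321, adjusted p = 0.746 by edgeR's quasi-likelihood test; exact permutation test, p = 0.0238). The unadjusted p was no longer under 0.05 without CM mouse 2, 3, 4 or 5 or CM/miR-126Δ/Δ mouse 1, 2 or 3.

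In the kinase tier, 10 genes of the IκB kinase complex and its upstream kinases gave 2 values above and 8 below 0 (median -0.02), with 0 at an unadjusted p under 0.05. The most abundant were Tab2, an adaptor of the kinase TAK1, at 205 ± 7.35 and 199.99 ± 6.46 CPM (log2 fold change -0.04), and Tbk1, an IKK-related kinase, at 81.2 ± 2.71 and 79.9 ± 8.03 CPM (log2 fold change -0.02; SD, n = 5 each). The tumor necrosis factor receptor complex, 13 genes, gave 2 above and 11 below 0 (median -0.06), with 0 at an unadjusted p under 0.05 and 1 with the replicate block. Its most abundant genes were Rbck1, a subunit of the linear ubiquitin ligase, and Tnfrsf1b, the receptor TNFR2, with log2 fold changes of -0.09 and -0.06 (adjusted p = 0.765 and 0.872). The other brakes on the pathway, 9 genes, gave 4 above and 5 below 0 (median -0.01) and 0 at an unadjusted p under 0.05. Among them Tax1bp1, an A20 partner, and Otulin, a deubiquitinase of linear chains, had log2 fold changes of -0.01 and -0.02 (adjusted p = 0.977 and 0.962).

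On the receptor side, the toll-like and interleukin-1 receptor arm comprised 12 genes with 6 values above and 6 below 0 (median 0.00), and 0 at an unadjusted p under 0.05. Irak1, the kinase downstream of Myd88, was at 181, 171, 181, 171 and 171 CPM in CM and at 168, 155, 162, 162 and 165 CPM in CM/miR-126Δ/Δ mice. Every CM/miR-126Δ/Δ mouse lay below every CM mouse, as for 1.38% of genes in either direction. The log2 fold change was -0.11 (SE 0.0497, unadjusted p = 0.0517, adjusted p = 0.757 by edgeR's quasi-likelihood test), and the exact permutation p of 0.00794 is the smallest that 5 against 5 mice can give. Myd88 itself, the adaptor of this arm, had a log2 fold change of -0.05 (adjusted p = 0.825). The receptors of the non-canonical arm, 5 genes, gave 1 value above and 4 below 0 (median -0.12), with 0 at an unadjusted p under 0.05. The lymphotoxin receptor Ltbr and the BAFF receptor Tnfrsf13c had log2 fold changes of -0.05 and -0.18 (adjusted p = 0.872 and 0.765).

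Downstream, 29 textbook NF-κB target genes that are no members gave 8 values above and 21 below 0, where all 18747 genes gave 8882 above and 9865 below. Of the 29, 18 had a mean of at least 1 RPKM, with a median log2 fold change of -0.13. None reached an adjusted p under 0.05, and 3 had an unadjusted p under 0.05, all lower in CM/miR-126Δ/Δ mice (6 with the replicate block, again all lower). The chemokine gene Ccl3 was at 14.1, 37.8, 7.16, 17.9 and 27.8 CPM in CM and at 10.9, 7.59, 4.18, 20.7 and 2.39 CPM in CM/miR-126Δ/Δ mice. As for the feedback genes, CM mouse 2 and CM/miR-126Δ/Δ mouse 4 were the highest of their genotypes and CM/miR-126Δ/Δ mice 3 and 5 the lowest of all. Its log2 fold change was -1.19 (SE 0.495, unadjusted p = 0.0304, adjusted p = 0.746), and that of Ccl4, its neighbor in the chemokine family, was -0.64 (SE 0.251, unadjusted p = 0.0225, adjusted p = 0.746). The third was Il6, at a mean of 0.412 RPKM in CM and 0.231 RPKM in CM/miR-126Δ/Δ mice, with a log2 fold change of -0.82 (unadjusted p = 0.0344), named after its values were seen. The count of 3 became 0 without CM/miR-126Δ/Δ mouse 3, 1 without CM mouse 5 or CM/miR-126Δ/Δ mouse 5, 6 without CM mouse 3 and 7 without CM/miR-126Δ/Δ mouse 4. In the 18 expressed genes the mean log2 CPM was 3.66 to 4.41 in CM and 3.26 to 4.45 in CM/miR-126Δ/Δ mice, with mice 3 and 5 of the latter lowest at 3.26 each.

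The genes whose levels ran most like those of the feedback genes were sought among the 11682 genes, by Pearson's r with the mean standardized log2 CPM of Nfkbia, Nfkbiz and Tnfaip3 over the 10 mice. The highest r were those of Nfkbid at 0.979, which encodes the nuclear IκB protein IκBNS, Med29 at 0.978, a Mediator subunit, Mcl1 at 0.976, an anti-apoptotic BCL2-family member, Cytip at 0.974 and Ccnl1 at 0.970. Nfkbid ran from 11.8 to 98.5 CPM and Mcl1 from 237 to 515 CPM between the lowest and the highest mouse. For the mean of the 5 subunits they were Cwc25 at 0.960, Cass4 and Mir219c at 0.929, Rilpl1 at 0.917 and Ppp1r10 at 0.907, of which Mir219c rests on only 0.0409 to 0.529 CPM. These values are the top of a ranking over all genes over the same 10 libraries, and they are given without a test.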

How the data were processed

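LSK cells of 10 mice, 5 per genotype, were sequenced after ribosomal RNA depletion with a stranded kit as single 51-base reads. The authors trimmed reads, aligned them to mm10 with TopHat2, counted RefSeq genes with HTSeq 0.6.1p1 per the submitters' processing notes, and deposited raw counts per gene with positions and exon lengths. A further deposited table named for RPKM held these counts divided by 1 constant per library and was not used. Whether counting used strand is not given in the sources used here.

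Genes without a count in the 10 libraries (6331) were dropped, and counts of the other 18747 were fitted with edgeR 4.0.16 (TMM factors, quasi-likelihood F-test, two-sided, genotype only, Benjamini-Hochberg adjustment over all genes, called at 0.05) in R 4.3.3. DESeq2 1.42.0 was an alternative. CPM used TMM-scaled library sizes, log2 CPM a prior count of 0.5 per library, and RPKM the deposited exon lengths. A gene counts as having a mean of at least 1 RPKM when 1 genotype does. Single values were also tested by exact permutation over all splits of the 10 mice (smallest possible p = 0.00794), or exact sign changes, with scipy 1.17.1. On simulated counts for 18373 genes with 200 changed, edgeR recovered 88% of 2-fold and 98% of 4-fold changes for CM/miR-126Δ/Δ against CM, with 2.62% of calls unchanged genes. With the replicate block edgeR recovered 90% and 98%, with 12.6% of calls unchanged genes. DESeq2 recovered 93% and 98%, with 12.8% of calls unchanged genes. The changed genes were drawn without regard to their spread, and each gene was simulated on its own. The feedback genes moved together and had a spread above that of 90.1% to 96.7% of the 11682 genes. The recovered shares need not hold for them. Libraries of 23649233 to 33202086 counts gave the members 71 (Relb) to 7656 (Nfkb1) counts per library. 3 counts were taken as the detection floor, and intervals are 95%.

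Groups and mouse numbers came from the labels. Same-numbered mice deviated together from their genotype means on average (correlations of 0.304, 0.217, 0.415, 0.442 and 0.176 for numbers 1 to 5, mean 0.311, against a mean of -0.08 between other numbers). Between other numbers the correlations ran from -0.41 to 0.468, and 5 of 10 mice correlated best with their own number. Pairing by number is therefore not settled, and the numbers were treated as pairs only in a further fit with the number as a block. No label says what a number marks. The members and gene lists were chosen with earlier results of these data known. Named beside the 10 members were, per list, genes of at least 1 RPKM with an unadjusted p under 0.05 (at most 4, by p), or else the 2 most abundant, the top gene of each marker list, and the 5 genes most like the feedback genes and the subunits. Alternatives were other scalings, filters, edgeR's newer quasi-likelihood fit, DESeq2, the block, a fit without Rn45s and leaving out each mouse.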

Additional observations from a re-analysis of the deposited data

Results flagged for a closer look

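Of the 20 combinations of a member and a genotype, 1 had a mouse far from the other 4 of its group: Rela was at 98.4 CPM in CM/miR-126Δ/Δ mouse 4, where the others ran from 90.9 to 91.9 CPM. About 1 in 20 groups (5%) is set apart in this way by chance, so 1 is the number expected here.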

How the results depend on the processing

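No member reached an adjusted p under 0.05 in any of the 18 alternatives, the lowest adjusted p being 0.518, and 0 members passed the cutoffs of the study or had genotypes that did not overlap. At an unadjusted p under 0.05 the count of members was 0 to 1 when single mice were left out. Of 180 alternative log2 fold changes of members, 160 kept the sign and the side of the threshold and 20 turned sign. Nfkb1 turned to 0.0019 with RLE size factors, 0.0018 with DESeq2, 0.010 with edgeR's expression filter and 0.012 among genes of at least 1 RPKM. With single mice left out, the ranges were -0.024 to 0.036 for Nfkb1, -0.16 to 0.13 for Nfkb2, -0.081 to 0.0024 for Rela, -0.044 to 0.15 for Relb, -0.018 to 0.11 for Rel and -0.43 to 0.11 for Nfkbiz. The replicate block changed no member's call; it gave -0.27 for Nfkbia (unadjusted p = 0.106), -0.28 for Nfkbiz (0.188) and -0.21 for Tnfaip3 (0.0968). It moved the number of list genes at an unadjusted p under 0.05 from 0 to 1 for the tumor necrosis factor receptor complex, 3 to 6 for the textbook targets, 4 to 18 for the immediate early genes and 1 to 3 for the interferon-stimulated genes, with 0 after adjustment in each. DESeq2 gave 1 for the receptor complex, the other brakes, the toll-like arm and the textbook targets and 2 for the immediate early genes. Leaving out single mice gave 0 to 1 for the other IκB proteins, the receptor complex, the other brakes and the toll-like arm, 0 to 7 for the textbook targets, 2 to 12 for the immediate early genes and 0 to 6 for the interferon-stimulated genes. The cause of these changes was not tested. With 5 mice per genotype, the 95% intervals were 0.589- to 1.15-fold for Nfkbia, 0.527- to 1.48-fold for Nfkbiz and 0.655- to 1.16-fold for Tnfaip3. Differences inside a gene's own interval were not excluded. The p-values for genotype set a difference only against the variation between these mice, or between same-numbered pairs of them.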
